A study of Mus musculus with 2 samples.

Results

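The genes described here are the amino acid transporters of 7 solute carrier families (SLC1, SLC3, SLC6, SLC7, SLC36, SLC38 and SLC43). They are every gene whose symbol is 1 of those family names followed by the letter a and a number. The rule found 61 genes among the 32285 genes of the matrices. Of these, 43 had at least 20 unique molecular identifiers (UMIs, each standing for 1 captured transcript) over both libraries and were analysed. Another 12 genes had under 20 UMIs (among them Slc6a17 and Slc7a10), and 6 had none (Slc7a12, Slc6a16, Slc6a21, Slc6a5, Slc1a6 and Slc6a18). The analysed genes came from SLC1 (5 of 7), SLC3 (2 of 2), SLC6 (9 of 19), SLC7 (12 of 15), SLC36 (2 of 4), SLC38 (10 of 11) and SLC43 (3 of 3).

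The study compared mouse gut polyps with normal duodenum by droplet single-cell RNA sequencing of transcript 3′ ends. The polyp library, Lkb1_Het, was made from 3 Lkb1flox/+;Myh11-Cre/ERT2 mice, which carry 1 floxed allele of Lkb1 (Stk11) and a tamoxifen-inducible Cre driven by the smooth-muscle gene Myh11. The normal library, WT, was made from 3 Lkb1+/+;Myh11-Cre/ERT2 mice, which carry the same Cre and intact Lkb1. Each group was 1 library of 3 pooled mice whose cells could not be separated, so no test between groups was possible and every interval below covers counting error only. Mouse age and tamoxifen treatment are not given in the sources used here, and the tissue label of both samples reads duodenum although the design text speaks of polyps.

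Dietary protein reaches the intestinal surface as small peptides and free amino acids. Enterocytes take up free amino acids at the brush border through transporters such as B0AT1 (Slc6a19) and the rBAT/b0,+AT heterodimer (Slc3a1 with Slc7a9), and release them into the blood through heterodimers of 4F2hc (Slc3a2) with the light chains Slc7a7 and Slc7a8. Other members, such as Slc1a5, Slc7a1, Slc7a5 and Slc38a2, supply amino acids to dividing, secreting and immune cells.

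The upstream sequences of 4 members are shown first. Slc3a1, Slc7a9 and Slc7a15 had 88.9% to 91.6% of their normal-library UMIs in enterocytes, and Slc7a11 is the member whose promoter holds the amino acid response motif on both strands. RefSeq promoters (GRCm38.p6, 250 bases before to 50 after a gene start) were found for 32 of the 43 genes. Capitals mark matches, on either strand, to an HNF4 motif (CAAAGTCCA), a CDX motif (TTTAT, then any base, then G), a GATA motif (AGATAA) or a C/EBP-ATF response element (TGATGNAA). HNF4, CDX and GATA proteins are transcription factors of intestinal epithelium, and ATF4 acts through the last motif when amino acids are short.
Slc3a1, chr17:85028097-85028396, plus strand: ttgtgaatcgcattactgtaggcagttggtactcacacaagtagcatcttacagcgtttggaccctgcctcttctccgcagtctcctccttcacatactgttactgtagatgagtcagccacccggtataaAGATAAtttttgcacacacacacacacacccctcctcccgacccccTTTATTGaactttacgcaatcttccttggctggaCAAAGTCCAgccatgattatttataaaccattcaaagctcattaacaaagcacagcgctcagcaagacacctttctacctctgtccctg
Slc7a9, chr7:35448842-35449141, plus strand: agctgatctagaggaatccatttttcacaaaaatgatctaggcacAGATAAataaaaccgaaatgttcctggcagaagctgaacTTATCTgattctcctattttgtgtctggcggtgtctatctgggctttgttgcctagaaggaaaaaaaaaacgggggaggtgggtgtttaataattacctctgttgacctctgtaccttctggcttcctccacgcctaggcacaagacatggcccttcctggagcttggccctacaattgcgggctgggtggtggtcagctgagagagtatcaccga
Slc7a15, chr12:8599017-8599316, minus strand: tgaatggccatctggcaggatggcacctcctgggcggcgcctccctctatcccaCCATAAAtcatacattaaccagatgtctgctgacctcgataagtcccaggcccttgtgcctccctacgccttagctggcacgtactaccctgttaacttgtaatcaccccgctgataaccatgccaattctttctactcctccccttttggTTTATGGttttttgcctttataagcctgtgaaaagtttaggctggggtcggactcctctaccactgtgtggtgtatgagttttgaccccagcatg
Slc7a11, chr3:50443564-50443863, minus strand: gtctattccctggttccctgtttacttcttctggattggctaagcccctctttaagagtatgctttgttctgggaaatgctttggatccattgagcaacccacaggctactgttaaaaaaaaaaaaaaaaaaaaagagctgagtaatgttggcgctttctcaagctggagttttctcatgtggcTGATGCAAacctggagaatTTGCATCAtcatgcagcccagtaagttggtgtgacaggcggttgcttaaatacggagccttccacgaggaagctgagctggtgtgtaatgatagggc

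The Slc3a1 window held the HNF4, CDX and GATA motifs once each, without overlap, at 39, 73 and 119 bases before the start. The Slc7a9 window shown held the GATA motif on both strands, and the Slc7a15 window shown the CDX motif on both strands. Slc7a9 and Slc7a15 each had another RefSeq window, not shown, which held none of the 4 motifs. The Slc6a19 window held none of the 4 motifs. Over the 32851 promoters of the table, 0.475% held the HNF4 motif, 10.9% the CDX motif, 11.2% the GATA motif and 3.97% the response element. Over the 51 promoters of analysed members the shares were 1.96%, 3.92%, 9.80% and 7.84%. These 4 were chosen from 9 motifs searched, the choice was made with the matches known, and a match describes letters only.

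Cells were sorted into classes by their own marker UMIs, and levels are CPM, the UMIs of a gene per 1000000 UMIs of its class. Kept cells numbered 3167 of 9950 barcodes in WT and 7887 of 14327 in Lkb1_Het, with medians of 2421 and 2318 UMIs, and 44 barcode sequences occurred in both libraries. Before filtering, the median mitochondrial share was 44.7% in WT and 10.3% in Lkb1_Het. WT against Lkb1_Het held 496 and 13 enterocyte cells, 94 and 7 crypt cells, 27 and 3435 gastric-type mucous cells, 40 and 270 endocrine cells. It held 147 and 326 plasma cells, 773 and 588 T cells, and 21 and 281 macrophages. Fabp1 stood at 15964 CPM in normal enterocytes, Olfm4 at 2257 CPM in normal crypt cells and Tff1 at 44032 CPM in polyp gastric cells. These genes are among the markers that set the classes, so their levels do not test the class names. The few polyp cells of the enterocyte and crypt classes held more gastric than own markers, 30211 against 12540 CPM and 249219 against 2437 CPM. Levels of enterocyte and crypt cells are therefore described in WT, and levels of gastric cells mostly in Lkb1_Het, where they were split into 1411 surface cells (Tff1, Gkn1, Muc5ac) and 2024 gland cells (Muc6, Tff2). Class names stand for cells that resemble the type.

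**Figure D1:**
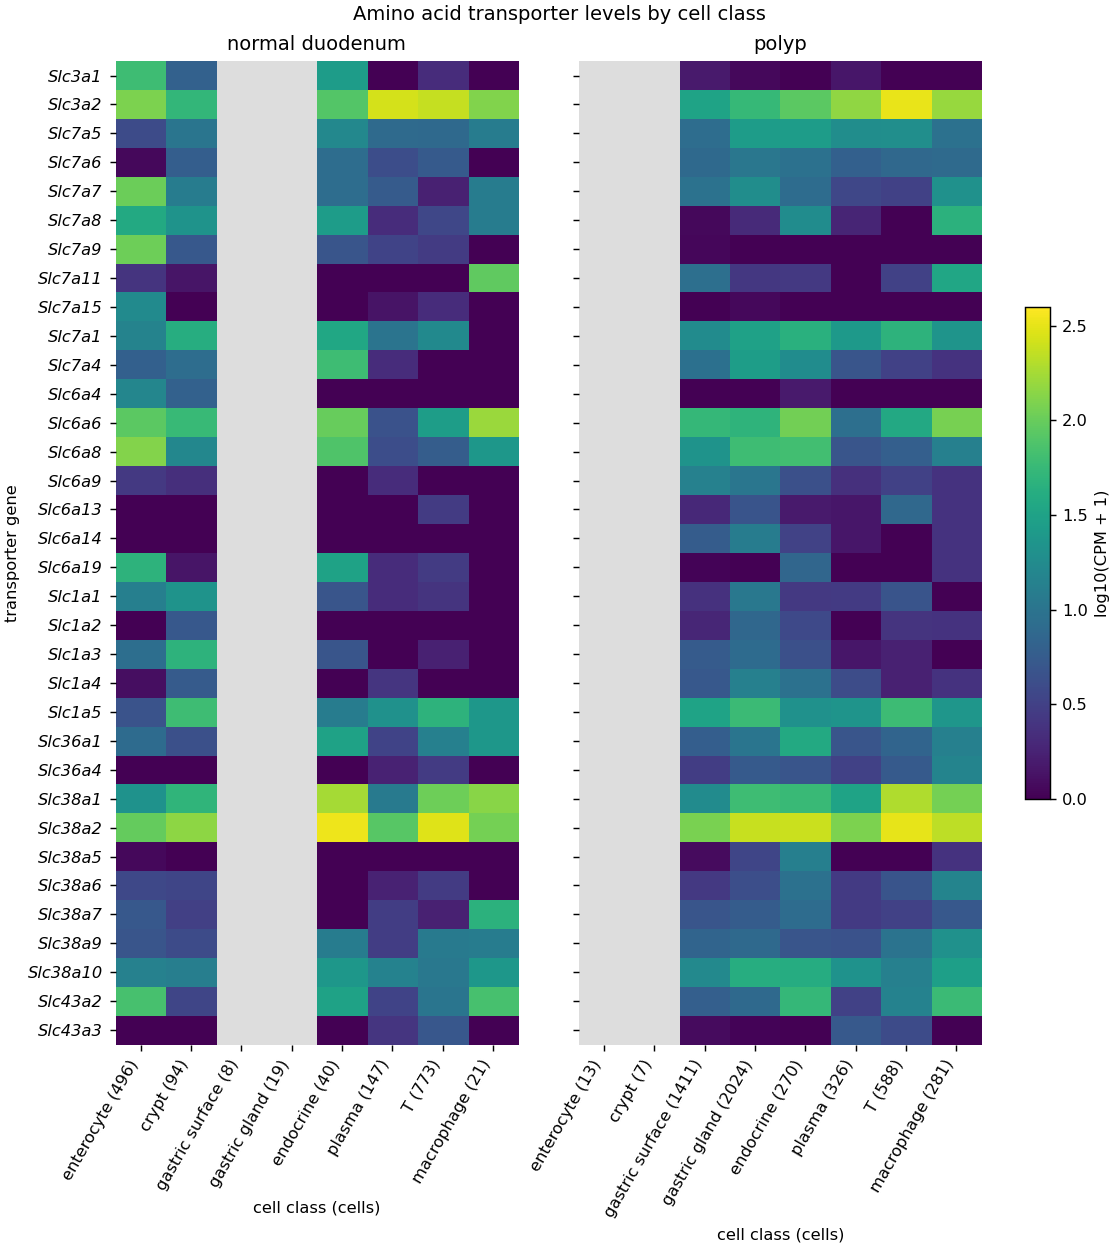
Level of each of the 34 genes with at least 100 UMIs in kept cells (rows, grouped by family) in 8 cell classes (columns, with the number of cells) of normal duodenum (left) and polyp (right), as log10(CPM + 1). Grey columns have under 20 cells. Slc3a1, Slc7a9, Slc7a15 and Slc6a19 are bright in normal enterocytes and dark in polyp gastric cells, while Slc3a2 and Slc38a2 are bright in every class shown.

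Levels were ordered over enterocytes, macrophages, and crypt, gastric surface, gastric gland, endocrine, plasma and T cells. Of these, only classes with at least 20 cells entered, which leaves out gastric surface and gland cells in WT and enterocytes and crypt cells in Lkb1_Het. Goblet, Paneth, fibroblast, endothelial and pancreatic acinar cells, among others, were not ordered, and a member can be higher there. Slc43a3 and Slc1a5, for example, were higher in normal fibroblasts than in any class ordered in WT. Among the ordered classes of WT, 12 of the 35 members with at least 20 kept UMIs were highest in enterocytes and 10 in endocrine cells. Another 6 were highest in crypt cells, 5 in macrophages, 1 in plasma cells and 1 in T cells. Of the 34 such members in Lkb1_Het, 11 were highest among its ordered classes in gland cells and 1 in surface cells. Another 8 were highest in macrophages, 7 in T cells, 6 in endocrine cells and 1 in plasma cells. These orders carry no test, and small classes such as the 21 normal macrophages have wide intervals.

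Some members had most of their normal UMIs in enterocytes. This class held 35.6% of all kept normal UMIs but over 80% of the UMIs of 8 members: Slc7a9 (91.6%), Slc7a15 (91.2%), Slc6a19 (89.9%), Slc3a1 (88.9%), Slc7a7 (86.6%), Slc6a4 (83.6%), Slc43a2 (82.7%) and Slc6a8 (82.1%). The 8 were picked by this share, and the share of all genes over 80% is not given here. In the 7887 polyp cells, 5 of these 8 had few UMIs, from 2 for Slc7a15 to 19 for Slc3a1, with Slc7a9, Slc6a4 and Slc6a19 between. Slc7a7, Slc43a2 and Slc6a8 had 580, 450 and 1803 polyp UMIs.

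Slc7a9 (ENSMUSG00000030492, chromosome 7: 35448796 to 35466036) encodes b0,+AT, which exchanges cystine and cationic amino acids for neutral ones at the brush border. Its level was 104 CPM (95% interval 97.3 to 112) in normal enterocytes, 4.17 CPM (1.999 to 7.67) in crypt cells, 2.32 CPM in plasma cells and 1.86 CPM in T cells. The plasma and T-cell values serve as background, since these cells are not known to use the gene. After each cell was thinned to 1000 UMIs, a Slc7a9 UMI remained in 7.41% of 378 enterocytes (4.98% to 10.5%) and in 0.131% of 765 T cells (0.0033% to 0.726%). Without thinning the shares were 50.8% and 0.647%, at median depths of 14610.5 and 3214 UMIs.

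Slc3a1 (ENSMUSG00000024131, chromosome 17: 85028376 to 85064236) encodes rBAT, the heavy chain that carries b0,+AT to the membrane. Its level was 60.9 CPM (55.5 to 66.7) in normal enterocytes, 26.6 CPM (10.7 to 54.8) in normal endocrine cells and 5.42 CPM (2.89 to 9.27) in crypt cells. The enterocyte and endocrine intervals did not overlap. Slc6a19 (ENSMUSG00000021565, chromosome 13: 73679745 to 73704865), the sodium-coupled carrier of neutral amino acids, stood at 46.7 CPM (42.0 to 51.8) in enterocytes. It stood at 30.4 CPM (13.1 to 59.9) in normal endocrine cells, which overlaps the enterocyte interval, and at 0.417 CPM in crypt cells. Slc7a15 (ENSMUSG00000020600, chromosome 12: 8528483 to 8599066) reached 16.4 CPM (13.7 to 19.5) in enterocytes and 0 UMIs in crypt, where 3 UMIs would be 1.25 CPM. Slc6a4 (ENSMUSG00000020838, chromosome 11: 76998603 to 77032340), the serotonin transporter, stood at 14.7 CPM (12.1 to 17.7) in enterocytes and 5.42 CPM (2.89 to 9.27) in crypt cells.

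Over all kept cells, Slc7a9 stood at 40.6 CPM in WT and 0.0792 CPM in Lkb1_Het, 513-fold lower (199.5 to 1886). Slc3a1 was 64.8-fold lower (41.1 to 109), Slc6a4 63.3-fold lower (26.4 to 198) and Slc6a19 55.0-fold lower (33.9 to 95.3). Slc7a15 had 2 polyp UMIs against 137 and was 162-fold lower (43.9 to 1348). These whole-library levels move with the number of enterocytes, 496 against 13, and fewer enterocytes cannot be told apart in them from less RNA per enterocyte. The 13 polyp cells of the enterocyte class held 1 Slc7a9 UMI, 1 Slc3a1 UMI and 4 Slc6a19 UMIs among 36046 UMIs in all. For Slc7a9 that is 27.7 CPM with an interval of 0.702 to 155, too few to set against the normal level.

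The basolateral and shared members of the set had levels outside enterocytes too. Slc7a7 (ENSMUSG00000000958, chromosome 14: 54369442 to 54417780), the y+LAT1 light chain that exports cationic amino acids, stood at 102 CPM (94.9 to 109) in normal enterocytes. It stood at 17.7 CPM (15.6 to 19.9) in polyp gland cells and 8.65 CPM (7.42 to 10.0) in polyp surface cells. Slc43a2 (ENSMUSG00000038178, chromosome 11: 75531694 to 75577575), the LAT4 facilitator of branched-chain amino acids and phenylalanine, stood at 69.0 CPM (63.2 to 75.2) in enterocytes. Normal macrophages had nearly the same Slc43a2 level from 6 UMIs (68.5 CPM), and polyp macrophages and endocrine cells had 58.9 CPM (42.4 to 79.6) and 52.4 CPM (42.4 to 64.1). Slc6a8 (ENSMUSG00000019558, chromosome X: 73673150 to 73682502), which carries creatine, stood at 131 CPM (123 to 139) in enterocytes, 61.0 CPM (57.1 to 65.0) in gland cells and 20.8 CPM (18.9 to 22.9) in surface cells. T cells had 4.83 and 5.15 CPM of Slc6a8 in WT and Lkb1_Het.

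**Figure D2:**
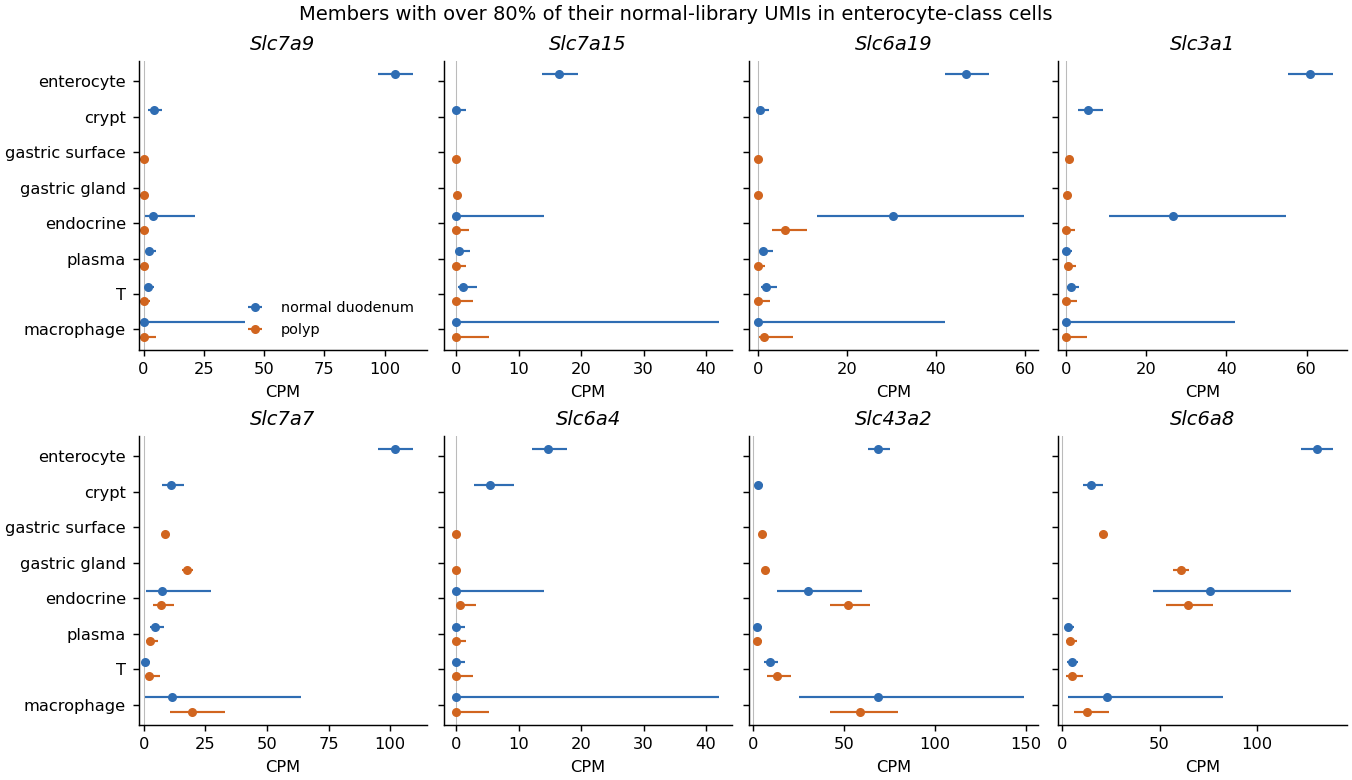
Level (CPM, linear axis) of the 8 genes with over 80% of their normal-library UMIs in enterocytes, by class, for normal duodenum (blue) and polyp (orange). Bars are exact 95% Poisson intervals, and classes with under 20 cells in a library are left out. Slc7a9 stands at 104 CPM in normal enterocytes, and Slc7a7, Slc43a2 and Slc6a8 also have levels above 0 in polyp cells.

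Other genes of luminal uptake differed in placement. Anpep, which frees amino acids from peptides, stood at 613 CPM (595 to 631) in normal enterocytes and 38.3 CPM (30.9 to 47.0) in crypt cells, and the peptide carrier Slc15a1 at 35.9 CPM (31.8 to 40.5) and 1.67 CPM (0.454 to 4.27). The proline carrier Slc6a20a stood at 42.9 CPM (38.4 to 47.8) and 0.834 CPM (0.101 to 3.01), and its symbol lies outside the rule because of its letter suffix. Enpep, another peptidase, stood at 179 and 5.42 CPM and Slc9a3, a sodium-proton exchanger, at 33.1 and 0.417 CPM in these classes. Dpp4, a further peptidase, was instead higher in normal endocrine cells (122 CPM) than in enterocytes (48.9 CPM), and Slc16a10, an aromatic amino acid carrier, was near equal in enterocytes and crypt cells (19.5 and 18.3 CPM). Xpnpep2 had 26 UMIs in enterocytes (3.41 CPM) and Cltrn had 0.

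The heavy chain Slc3a2 (ENSMUSG00000010095, chromosome 19: 8706882 to 8723369) differed from its light chains in where it was found. UMIs are counted at transcript 3′ ends, so levels are not scaled by length. Capture and 3′ end annotation can differ between genes and were not tested, so levels of different genes are side by side only as a description. In normal enterocytes Slc3a2 stood at 120 CPM (112 to 128) and its 6 light chains Slc7a5, Slc7a6, Slc7a7, Slc7a8, Slc7a10 and Slc7a11 summed to 143 CPM (135 to 152), of which Slc7a7 gave 71.3%. Polyp gland cells had 54.4 CPM (50.8 to 58.2) of Slc3a2 and 56.8 CPM (53.1 to 60.7) of light chains, with Slc7a5, the large neutral amino acid exchanger, giving 47.0%. The light chains lay above the heavy chain in enterocytes, where the intervals were apart, and overlapped it in gland cells.

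Plasma cells and T cells were not like this. Normal plasma cells had 269 CPM (250 to 290) of Slc3a2 against 15.9 CPM (11.4 to 21.5) of light chains. Normal T cells had 234 CPM (216 to 253) against 14.5 CPM (10.3 to 19.8). The polyp values were 147 CPM (132 to 164) against 26.5 CPM (20.2 to 34.0) in plasma cells and 325 CPM (295 to 356) against 30.9 CPM (22.3 to 41.8) in T cells. Polyp macrophages lay between, with 157 CPM (129 to 189) against 115 CPM (91.4 to 143), and Slc7a8 gave 40.2% of the light chains. Slc3a2 also exceeded its light chains in polyp fibroblasts, 101 CPM (77.0 to 130) against 32.0 CPM (19.2 to 49.9). In polyp endocrine cells the values were 86.4 against 60.8 CPM. In enterocytes the light chain of rBAT, Slc7a9, likewise exceeded its heavy chain Slc3a1, 104 against 60.9 CPM. In normal endocrine cells Slc3a1 was the higher, 26.6 against 3.80 CPM, but from 7 and 1 UMIs.

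**Figure D3:**
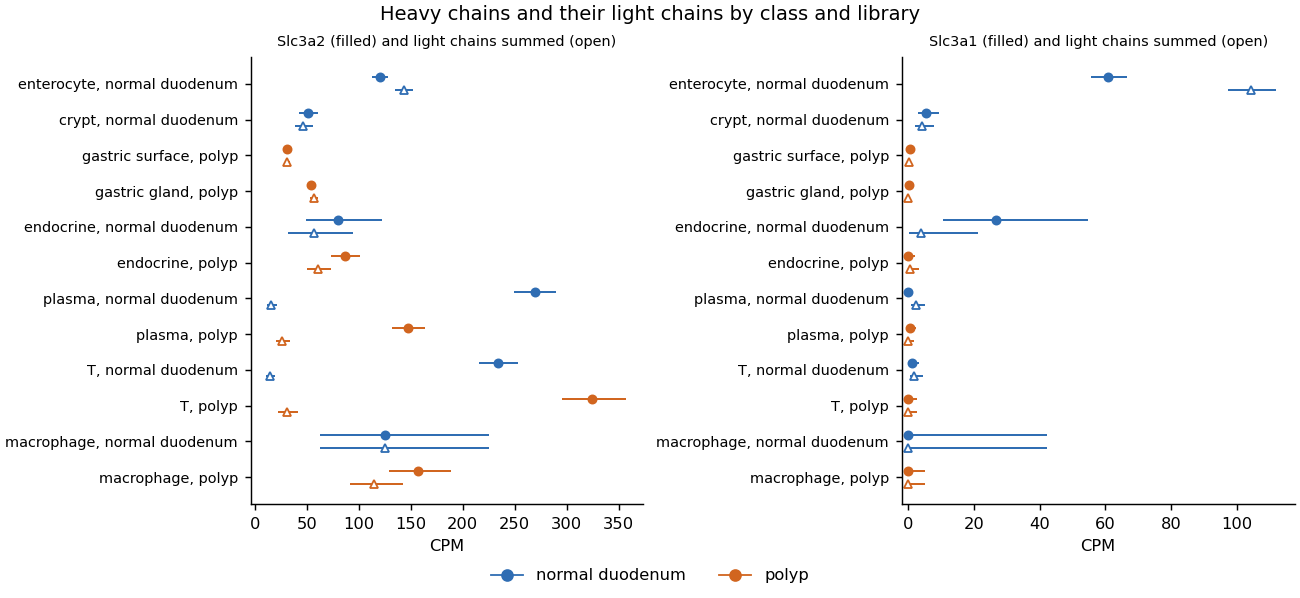
Level (CPM, linear axis) of the heavy chains Slc3a2 (left) and Slc3a1 (right), filled, and the sum of their light chains, open, by class and library (blue normal duodenum, orange polyp), with exact 95% Poisson intervals. Slc3a2 exceeds its light chains in plasma and T cells, lies below them in enterocytes (120 against 143 CPM) and overlaps them in crypt and gastric cells.

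Several members were higher in crypt cells than in enterocytes. Slc1a3, a glutamate and aspartate carrier, stood at 46.7 CPM (38.4 to 56.2) in normal crypt cells and 7.74 CPM (5.89 to 9.98) in enterocytes. Slc1a5, which exchanges glutamine and other small neutral amino acids, stood at 61.3 CPM (51.8 to 72.0) against 3.67 CPM (2.44 to 5.31). Slc7a1, the CAT1 carrier of arginine and lysine, stood at 40.8 CPM (33.2 to 49.8) against 13.6 CPM (11.1 to 16.5), and Slc1a1, another glutamate carrier, at 20.8 CPM (15.5 to 27.5) against 12.2 CPM (9.85 to 14.9). For each of these 4 the intervals were apart between crypt cells and enterocytes of the same library. They are listed because they were higher in crypt cells, and the share of all genes with intervals apart is not given here. These levels were not particular to crypt cells. Slc1a5 in crypt cells overlapped its levels in normal T cells, 47.1 CPM (39.3 to 56.1), and in polyp gland cells, 58.0 CPM (54.2 to 61.9). Slc7a1 stood at 47.1 CPM in polyp T cells and 44.0 CPM in polyp endocrine cells.

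In the polyp, gland and surface cells carried different members. Slc38a2, the stress-inducible SNAT2 carrier of neutral amino acids, stood at 238 CPM (231 to 246) in gland cells and 118 CPM (114 to 123) in surface cells. Slc38a1 stood at 60.5 CPM (56.6 to 64.5) and 16.9 CPM (15.1 to 18.7), Slc7a5 at 26.7 CPM (24.2 to 29.4) and 7.52 CPM (6.37 to 8.81), and Slc7a4 at 26.7 CPM (24.2 to 29.5) and 8.01 CPM (6.82 to 9.34). Slc1a1 stood at 10.1 CPM (8.58 to 11.8) and 1.34 CPM (0.880 to 1.94). Slc7a11, the xCT cystine and glutamate exchanger, went the other way, with 1.63 CPM (1.06 to 2.41) in gland cells and 7.91 CPM (6.73 to 9.24) in surface cells. Slc6a9, the glycine carrier GlyT1, was also higher in surface cells, 12.9 CPM (11.3 to 14.5) against 9.46 CPM (7.98 to 11.1). Gland cells were shallower than surface cells, with medians of 3602 and 12785 UMIs, and these are values of 1 library.

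Slc6a14 (ENSMUSG00000031089, chromosome X: 21714896 to 21742355), a broad carrier of neutral and cationic amino acids, was found almost wholly in polyp epithelium. It had 325 UMIs in kept polyp cells, 96.6% of them in epithelial classes, and 4 UMIs in WT. Of all kept polyp UMIs, gastric cells held 70.4% and unclassed epithelium 9.73%, so a high epithelial share is usual for any gene. Its level was 11.2 CPM (9.605 to 13.03) in gland cells, 4.65 CPM (3.76 to 5.69) in surface cells and 0 of 1358195 UMIs in polyp T cells. The whole-library ratio was 34.4 (13.3 to 127), and it moves with the cell mix. Within gastric cells the normal level was 4.22 CPM from 3 UMIs, all in 1 cell, against 7.48 CPM in the polyp, a ratio of 1.49 (0.505 to 7.28) with an interval across 1. Slc1a2, another glutamate carrier, and Slc6a12, a betaine carrier, had 94.7% and 97.8% of their 151 and 89 polyp UMIs in epithelium. Slc6a13 had 73.8% of 122 there, although among the ordered polyp classes its level was highest in T cells, 6.63 CPM from 9 UMIs. Fibroblasts and other classes outside that order were not compared.

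Polyp against normal levels within a class were compared for the 5 classes with at least 20 cells in both libraries. A gene was called where the ratio of CPM, taken relative to the median gene of the class where that lay over 0.1 log2 from 0, passed 2-fold with a counting interval clear of 1. Few members were called, from 0 to 3 in each direction and class, too few to set their shares apart from those of all genes.

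**Figure D4:**
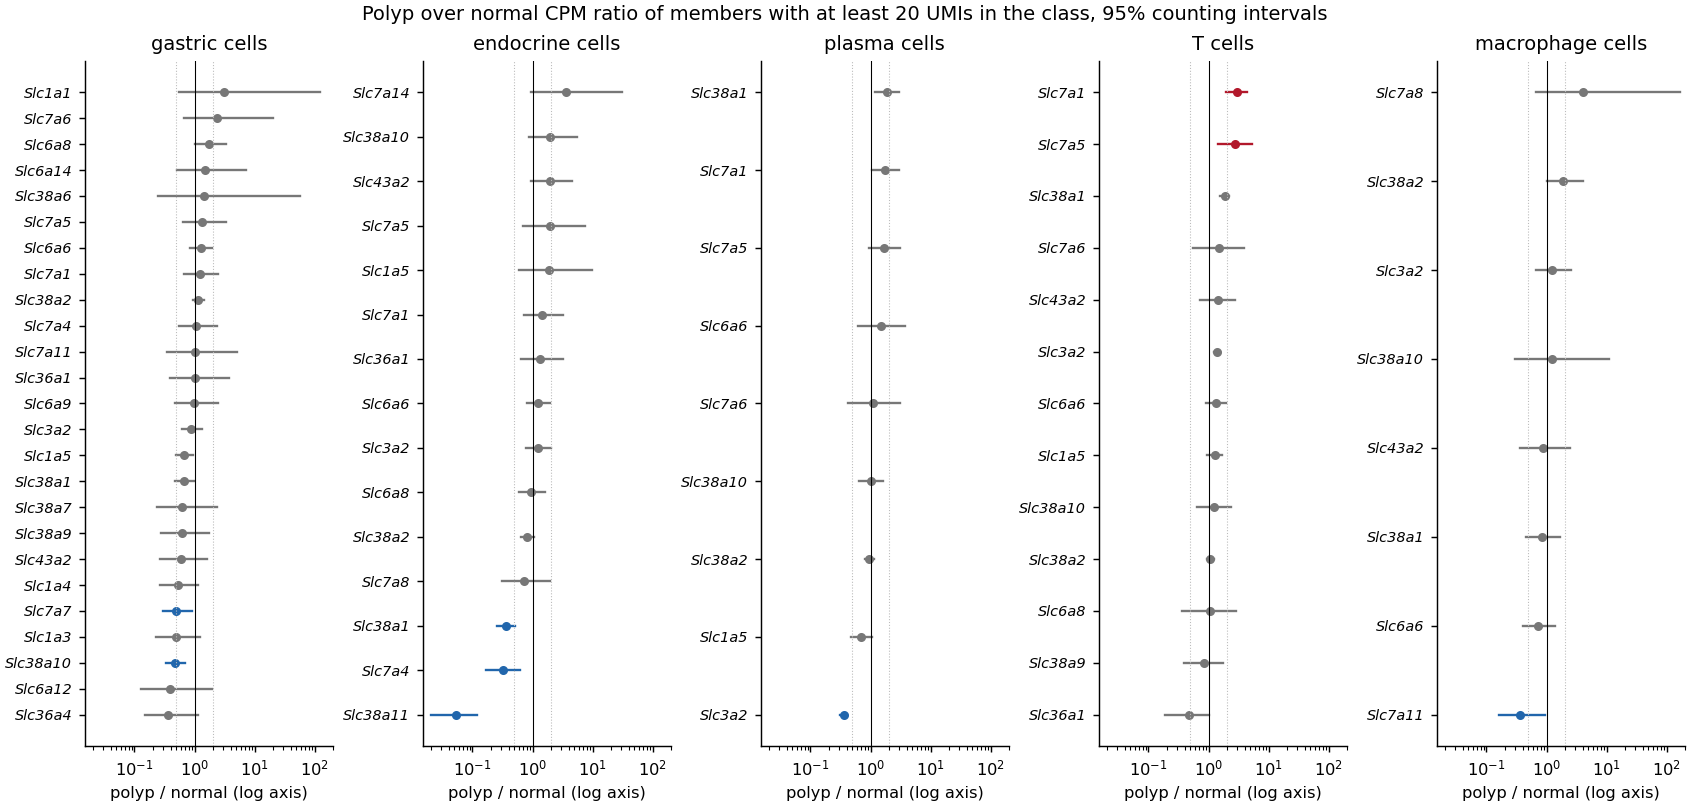
Polyp over normal CPM ratio (log axis) of each member with at least 20 UMIs in the class and at least 1 in WT, with exact 95% counting intervals. Red and blue mark members called higher and lower, grey those not called, and dotted lines mark 2-fold. Slc38a11 in endocrine cells lies farthest to the left, at 0.0526, and Slc7a1 in T cells stands at 2.95.

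In gastric cells 29 members were measured, 0 were called higher and 2 lower, while 5.00% and 5.37% of 12488 genes were called higher and lower. Slc38a10 stood at 46.5 CPM in the 27 normal cells and 26.6 CPM in the 3435 polyp cells, a ratio of 0.481 (0.340 to 0.704). Slc7a7 stood at 21.1 and 12.5 CPM, a ratio of 0.500 (0.2998 to 0.901), at the limit of the rule. Without scaling the ratios were 0.572 and 0.594, and neither passed 2-fold. Neither was called without the cell richest in the gene (0.587 and 0.655). An earlier class rule left 6 normal gastric cells, and there the ratios turned to 1.89 and 1.01. The normal class was 19 gland and 8 surface cells, against 2024 and 1411 in the polyp. In gland cells alone, with fewer than 20 normal cells, 29 members were measured, and 1 was higher and 3 lower, while 4.92% and 5.26% of 11473 genes were called. These were Slc6a8 (15.6 and 61.0 CPM, ratio 2.99, 1.45 to 7.47), Slc36a4 (5 and 68 UMIs, ratio 0.305, 0.124 to 0.969), Slc38a10 (0.487, 0.336 to 0.733) and Slc7a7 (0.467, 0.269 to 0.889). Of 14 dissociation-stress genes, 8 were also lower in the pooled polyp class, such as Junb with a ratio of 0.307 (0.289 to 0.325), and their part in these values was not tested. Members not called included Slc38a2 (124 and 170 CPM, ratio 1.16, 0.936 to 1.44), Slc6a6 (33.8 and 51.0 CPM, ratio 1.27, 0.851 to 1.99) and Slc1a5 (53.5 and 42.7 CPM, ratio 0.672, 0.487 to 0.954).

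In endocrine cells 17 members were measured, with 1 called higher and 3 lower, against 9.82% and 9.35% of 8339 genes. Slc38a11 (ENSMUSG00000061171, chromosome 2: 65316430 to 65364034), a putative sodium-coupled carrier, had 25 of its 27 kept normal UMIs in these cells. It stood at 94.9 CPM (61.4 to 140) in WT and 4.46 CPM (1.93 to 8.79) in Lkb1_Het, a ratio of 0.0526 (0.0204 to 0.120). Slc38a1 stood at 178 CPM (131 to 237) and 57.4 CPM (46.9 to 69.6), a ratio of 0.360 (0.253 to 0.520). Slc7a4, a member of the cationic branch, stood at 60.8 CPM (34.7 to 98.7) and 17.3 CPM (11.7 to 24.5), a ratio of 0.318 (0.169 to 0.623). Slc7a2 (ENSMUSG00000031596), the CAT2 carrier of cationic amino acids, had 0 UMIs in 40 normal cells. In 270 polyp cells Slc7a2 had 25.1 CPM (18.3 to 33.6) from 45 UMIs. The exact interval of its ratio began at 1.92, under 2-fold, and with 3 normal UMIs in place of 0 the ratio would be 2.46. Members with more UMIs that were not called were Slc38a2 (338 and 248 CPM, ratio 0.819, 0.651 to 1.04), Slc6a6 (98.7 and 110 CPM, ratio 1.24, 0.824 to 1.95) and Slc3a2 (79.7 and 86.4 CPM, ratio 1.21, 0.766 to 2.01).

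The hormones of the endocrine cells differed between the libraries. Cells were split, after their values had been seen, by the hormone or hormone-enzyme gene with the most UMIs. In WT, 11 of 40 cells were led by Tph1, the serotonin-synthesis enzyme, and 13 by Sct (secretin). In Lkb1_Het, 20 of 270 were led by Tph1, 92 by Pyy, 52 by Ghrl (ghrelin) and 39 by Gast (gastrin). Slc38a11 stood at 120 CPM (61.9 to 209) in normal Tph1-led cells and 84.6 CPM (36.5 to 167) in normal Sct-led cells, and at 28.3 CPM (9.18 to 66.0) in polyp Tph1-led cells. In polyp cells it had 0 UMIs in those led by Ghrl or Gast and 1 in those led by Pyy. Slc7a2 was in Ghrl-led (39.7 CPM), Pyy-led (29.7 CPM) and Gast-led (23.8 CPM) polyp cells and had 0 UMIs in Tph1-led cells of either library.

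Slc7a14, a lysosomal relative of the cationic carriers, had a similar placement, with 39.7 CPM (23.5 to 62.7) in Ghrl-led and 25.7 CPM (13.7 to 44.0) in Pyy-led cells. Slc38a5 was in polyp Tph1-led cells at 73.5 CPM (39.1 to 126), which held 13 of its 22 endocrine UMIs. The 12 gastric markers added up to 29498 CPM in polyp endocrine cells against 771 in normal ones. How far the change of endocrine mix accounts for the class ratios was not tested.

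In plasma cells 9 members were measured, with 0 called higher and 1 lower, against 9.48% and 6.54% of 6360 genes. Slc3a2 had a ratio of 0.358 (0.313 to 0.408) relative to the median gene, which itself was 0.61 log2 higher in the polyp. The plain ratio was 0.546, so the call rests on that scaling. Without scaling the counts were 3 higher, Slc38a1 (2.88), Slc7a1 (2.68) and Slc7a5 (2.55), and 0 lower, while 26.9% and 2.23% of all genes were called. Normal plasma cells were deeper, with a median of 18205 against 6947 UMIs. Of 14 dissociation-stress genes, 7 were lower, such as Fos at 3075 and 966 CPM, and gastric markers added up to 15190 CPM in polyp against 298 in normal plasma cells. The part of either was not tested. Relative to the median gene, the members next in count were Slc38a2 (83.1 and 122 CPM, ratio 0.960, 0.801 to 1.15), Slc1a5 (19.7 and 21.3 CPM, ratio 0.706, 0.467 to 1.07) and Slc38a1 (10.8 and 31.2 CPM, ratio 1.89, 1.21 to 3.04), and none was called.

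In T cells 13 members were measured, with 2 called higher and 0 lower, against 12.1% and 10.9% of 8783 genes. Slc7a1 (ENSMUSG00000041313, chromosome 5: 148327410 to 148399904) stood at 16.0 CPM (11.6 to 21.5) in WT and 47.1 CPM (36.3 to 60.2) in Lkb1_Het, a ratio of 2.95 (1.98 to 4.45). Slc7a5 (ENSMUSG00000040010), the leucine and large neutral amino acid exchanger LAT1, stood at 6.68 CPM (3.96 to 10.6) and 18.4 CPM (11.9 to 27.2), a ratio of 2.75 (1.44 to 5.36). The intervals of the levels did not overlap for either gene. Slc38a1 was under 2-fold at 105 and 194 CPM (ratio 1.85, 1.56 to 2.20), as was Slc3a2 at 234 and 325 CPM (ratio 1.39, 1.23 to 1.57). Slc38a2 had a ratio of 1.08 (0.956 to 1.21).

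T-cell makeup and gastric marker levels also differed between the libraries, and of 14 dissociation-stress genes 2 were higher and 3 lower in polyp T cells. Cells with a Cd8a, Cd8b1 or Trdc UMI and no Cd4 UMI numbered 634 of 773 in WT and 91 of 588 in Lkb1_Het, and cells with Cd4 alone numbered 35 and 91. Within the first kind Slc38a1 had a ratio of 2.37 (1.71 to 3.24), Slc7a1 of 2.50 (0.992 to 5.55) and Slc3a2 of 1.18 (0.896 to 1.54). Within the second Slc38a1 had a ratio of 1.84 (0.947 to 3.86) and Slc3a2 of 1.64 (1.06 to 2.59). Most polyp T cells fell in neither kind. The first kind held 8 of the 64 Slc7a1 UMIs of polyp T cells, and neither kind has a Slc7a5 ratio here. The gastric markers added up to 32096 CPM in T cells of the polyp against 1022 in WT, and all 12 had UMIs there. Slc9a3, which reached 117 CPM in polyp gastric cells, went from 0.742 to 20.6 CPM in T cells. Slc6a14 had 0 UMIs in polyp T cells, which says little because it stood at only 7.48 CPM in polyp gastric cells. The part of free epithelial RNA in the Slc7a1 and Slc7a5 values was not tested, and polyp gland cells held 29.7 CPM (27.1 to 32.6) of Slc7a1, less than polyp T cells, and 26.7 CPM of Slc7a5, more than polyp T cells.

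In macrophages 8 members were measured, with 0 called higher and 1 lower, against 6.57% and 3.73% of 4018 genes. Slc7a11 (ENSMUSG00000027737, chromosome 3: 49892526 to 50443614) stood at 91.3 CPM in the 21 normal cells and 33.6 CPM in the 281 polyp cells, a ratio of 0.368 (0.160 to 0.948). All 8 normal UMIs were in 1 cell, and the mean over cells of each cell's CPM gave 1.18, the other direction. Slc7a8, the LAT2 light chain, stood at 46.3 CPM (31.8 to 65.0) in polyp macrophages and 11.4 CPM from 1 UMI in normal ones. Slc6a6, the taurine carrier, stood at 160 CPM (87.4 to 268) in normal and 115 CPM (91.4 to 143) in polyp macrophages, a ratio of 0.719 (0.405 to 1.37). Slc3a2 stood at 126 and 157 CPM (ratio 1.25, 0.672 to 2.58). Slc38a2 stood at 114 and 219 CPM (ratio 1.92, 1.01 to 4.07) and was not called, but passed 2-fold at 2.58 without the cell richest in it. Gastric markers added up to 34062 CPM in polyp and 617 in normal macrophages, and their part was not tested.

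Other genes of amino acid handling were counted by the same rule, beside the shares of all genes given above for each class (12.1% higher and 10.9% lower in T cells, 9.48% and 6.54% in plasma cells, 9.82% and 9.35% in endocrine cells, 5.00% and 5.37% in gastric cells). The lists are too short to set apart from these shares. Of the ATF4 and stress-response list, 3 of 14 measured genes were higher and 0 lower in T cells, 0 of 13 higher and 3 lower in plasma cells, and 1 of 17 higher and 4 lower in gastric cells. It was 0 of 12 higher and 1 lower in endocrine cells, and 0 of 6 either way in macrophages. Those in T cells were Atf3 (115 and 339 CPM), which is also among the dissociation-stress genes, Nupr1 (21.2 and 45.6 CPM) and Sesn2 (2.23 and 10.3 CPM). Those in plasma cells were Asns, asparagine synthetase (ratio 0.391), and the serine and glycine enzymes Phgdh (0.301) and Shmt2 (0.334). Of 12 measured amino acid enzymes in T cells, 4 were higher and 3 lower. Odc1, which makes putrescine from ornithine, stood at 347 and 2050 CPM (ratio 5.90, 5.48 to 6.36), and the glutamine synthetase Glul at 39.7 and 97.2 CPM. Arg2, Cps1 and Otc had 67, 25 and 22 UMIs in normal T cells and 0 in polyp T cells. In endocrine cells 1 enzyme of 11 was higher and 5 lower, among them Arg1 (91.1 and 8.36 CPM) and Tph1 (3592 and 616 CPM).

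The mTORC1 sensing list had 0 to 2 genes called higher and 0 or 1 lower in each class, of 9 to 20 measured. The glutathione and NRF2 list had 2 higher and 0 lower in T cells (9 measured) and in endocrine cells (10 measured). It had 0 higher and 1 lower in gastric cells (10 measured), 1 and 1 in plasma cells (9), and 1 and 0 in macrophages (6). Gclc, which makes the glutathione precursor, had ratios of 2.31 (1.45 to 3.68) in T cells and 5.91 (1.97 to 29.1) in endocrine cells. Of the luminal uptake list, 1 of 5 measured genes was higher and 1 lower in gastric cells, 2 of 4 higher and 1 lower in endocrine cells, 1 of 4 higher and 1 lower in T cells, 1 of 2 higher and 1 lower in plasma cells, and 0 of 1 either way in macrophages. Anpep was lower in T cells (26.0 and 0.736 CPM). Enterocyte markers added up to 839 CPM in normal and 65.5 in polyp T cells, and their part in the Anpep, Arg2, Cps1 and Otc values was not tested.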

How the data were processed

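Deposited values were raw UMI counts per gene and barcode, as the authors' Cell Ranger wrote them, per the file headers (version 5.0.0, whereas the submitters' processing notes give 3.0.0 and mm10). Barcodes were kept with at least 500 UMIs, 250 genes and at most 25% mitochondrial UMIs. The doublet caller scrublet (scanpy 1.11.5) marked 0 barcodes and so had not worked. The highest scores up to 0.8% per 1000 cells were removed instead, 85 in WT and 573 in Lkb1_Het.

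Each cell took the class with the highest mean of scaled marker levels, at least 0.5 with 3 markers detected. A first version with a single gastric score placed normal gland cells and polyp cells with little Olfm4 in the crypt class. After these cells had been seen, gastric markers were split into surface and gland scores, and crypt cells had to have 100 CPM of Olfm4. Markers of competing classes such as pancreatic acinar cells (1254 normal cells) were scored alongside.

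CPM are summed UMIs of a class over all its UMIs, with exact Poisson intervals. Ratios carry exact conditional binomial and shares exact Clopper-Pearson intervals, all at 95% and for counting error only. Members were called at 2-fold among genes with at least 20 UMIs in the class. A value of 0 allows up to 3 UMIs. With 1 library per group no test was made. The calling step was tested on simulated counts. Members named in a comparison are those called, then those not called with the most UMIs; Slc6a14, Slc7a8 in macrophages, the T and endocrine subsets, the chain sums and the over-80% set were chosen after their values were seen. Each cell was thinned to 1000 UMIs for shares. Members, gene lists and markers were chosen with earlier results of these data known. Gene positions are from GENCODE vM21 on GRCm38, and the annotation release behind the deposited IDs is not given in the sources used here. Alternatives covered filters, class rules, scaling, minimum and fold. Software was Python 3.11.15, numpy 2.4.6, scipy 1.17.1, pandas 2.3.3, anndata 0.12.19 and matplotlib 3.10.9.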

Additional observations from a re-analysis of the deposited data

How the results depend on the processing

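With the stricter barcode filter, members called higher in endocrine cells went from 1 to 2, and with no mitochondrial limit to 4. Without that limit 1 was also called higher in plasma cells, 1 lower in T cells and 1 higher in macrophages. With Leiden clusters, counts were 1 lower in gastric, 2 higher in endocrine, 1 lower in T and 0 lower in macrophage cells. With the mean over cells, counts were 1 higher and 0 lower in gastric, 1 higher in plasma and 0 lower in macrophage cells, and Slc7a11 in macrophages turned to 1.18. Without scaling, counts were 1 higher and 0 lower in gastric cells and 3 higher and 0 lower in plasma cells. With doublets kept, 1 was lower in gastric cells. With a minimum of 50 UMIs, counts were 0 higher and 1 lower in endocrine, 1 higher in T and 0 lower in macrophage cells. With no minimum, 5 were lower in gastric, 6 in endocrine, 3 in plasma and 2 in macrophage cells, and 4 were higher in T cells. At 1.5-fold, 1 was higher in gastric, 2 in plasma and 1 in macrophage cells, and in T cells Slc38a1 (1.85) made the count 3. Fewer or more genes entered under the minimum settings by construction, and otherwise the cause was not tested. Shares of all genes under the alternative settings are not given here, apart from plasma cells without scaling. The counts therefore describe the settings and are no result about the members.

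The first version of the class rule, added after seeing the data, left 6 normal gastric cells. There the counts were 1 higher and 0 lower, Slc38a10 turned to 1.89 and Slc7a7 to 1.01, and 2 members were higher in endocrine cells. Both gastric calls therefore depend on how gastric cells were chosen. Leaving out cells near the class limit moved no count. Without the cell richest in the gene, 6 of the 8 called ratios that could be computed were still called; Slc38a10 (0.587) and Slc7a7 (0.655) in gastric cells were not, and Slc38a1 in plasma cells (2.01) and Slc38a2 in macrophages (2.58) were called. Without thinning, shares of normal enterocytes with a UMI were 50.8% in place of 7.41% for Slc7a9, 44.2% in place of 5.82% for Slc3a1 and 29.0% in place of 3.44% for Slc6a19. No paired analysis was possible because each group was 1 library. With 21 normal macrophages and 27 normal gastric cells, counting intervals in those classes are wide.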

Other observations

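Classes outside the main comparison held members of their own. Slc43a3, a purine base carrier of the SLC43 family, stood at 349 CPM (276 to 435) in 38 normal and 168 CPM (137 to 205) in 219 polyp fibroblasts, and 301 CPM (226 to 393) in 54 polyp endothelial cells. Its level was 0.198 CPM in polyp surface cells and 4.08 CPM in normal T cells. Slc1a5 stood at 159 CPM (111 to 220) in normal and 101 CPM (77.0 to 130) in polyp fibroblasts, above its 61.3 CPM in normal crypt cells.

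Cells led by pancreatic acinar markers, 1254 in WT with a median of 707.5 UMIs, held 31 of the 32 kept normal UMIs of Slc38a5 (12.8 CPM, 8.72 to 18.2) and 19 of the 21 of Slc38a3 (7.86 CPM, 4.74 to 12.3). Both encode sodium-coupled carriers of glutamine. Barcodes over the mitochondrial limit, 4549 in WT, held 1411 Slc6a8 UMIs (99.1 CPM), 451 of Slc7a9 (31.7 CPM) and 450 of Slc6a19 (31.6 CPM). The 3453 such barcodes in Lkb1_Het held 207, 5 and 1.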
